A study of Mus musculus with 6 samples.

Results

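A set of 10 genes of prostaglandin synthesis, inactivation and reception were followed in primary acinar cells of the mouse pancreas. Its members were found by symbol among the 23282 rows of the count tables. Pla2g4a releases the fatty acid precursor, Ptgs1 and Ptgs2 are the cyclooxygenases, Ptges, Ptges3, Ptgis and Ptgds are terminal synthases, Hpgd inactivates the products, and Ptger2 and Ptger4 are receptors. The set was chosen by the fold change of Ptgs2, among the largest between the groups, so the Ptgs2 values below are a description and carry no test. The other 9 genes joined it by their place in the pathway.

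The data are 6 libraries of 3' tag sequencing from strain C57BL/6J. The 3 cKO libraries are labelled as a conditional knock-out of estrogen-related receptor gamma (ERRγ, the nuclear receptor encoded by Esrrg; genotype ERRgamma -/-). The 3 control libraries are labelled wild type. Cells of both groups were cultured in Waymouth's medium containing 25 ng/ml of human epidermal growth factor, 2.5% serum, antibiotics and a trypsin inhibitor. The sources used here give neither the deleting Cre line nor the deleted part, the age and sex of the mice, or the time in culture. They also do not say that replicates of a group are separate animals, so each p-value covers library-to-library spread that may be only technical.

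Prostaglandins are short-lived lipid signals. A phospholipase frees arachidonic acid from membranes, a cyclooxygenase turns it into the common intermediate prostaglandin H2, and a terminal synthase makes the final product, which acts on G protein-coupled receptors of nearby cells. Ptgs1 is the form present in many resting tissues, and Ptgs2 is the inducible form known from inflammation, including pancreatitis.

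The libraries held 15.2 to 17.0 M counts in cKO and 23.0 to 25.2 M in control. Digestive enzyme genes, with the ribosomal precursor Rn45s and the caspase gene Casp9, took 29.2%, 64.0% and 33.6% of counts in cKO replicates 1, 2 and 3, against 91.8% to 92.5% in control, so cKO replicate 2 stood apart from the other two cKO libraries. Levels below are CPM on the TMM scale: counts are divided by a library size, in M, under which most genes change little. These scaled sizes averaged 50.8 ± 15.3 M in cKO and 7.96 ± 0.489 M in control (SD, n = 3 each), so a low gene was sampled more deeply in cKO. The targeted gene Esrrg had 0, 9 and 1 counts in cKO replicates 1, 2 and 3 and 0 counts in each control library. A 3' tag can lie outside the deleted part, so these counts check nothing about the genotype. Acinar markers were detected in every library, and those of other cell types differed between the groups, as given with the marker lists below.

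Ptgs2 lies on chromosome 1 (150100031 to 150108227, plus strand, GRCm38), beside Pla2g4a (149829618 to 149961290, minus strand), and the starts of the 2 genes point away from each other across a gap of 138.7 kb. The opposite-strand gene Ptgs2os, whose nearer edge lies 67 bases before the start of Ptgs2, had 0 counts in all 6 libraries. Ptgs2os2 had 43, 13 and 42 counts in cKO replicates 1, 2 and 3 and 0 in each control library. Of the 10 genes, 9 had an entry in the RefSeq promoter table of GRCm38.p6. The windows of Ptgs2 and of 3 other genes that rose, Ptges, Hpgd and Ptgs1, are printed because they show how the starts of genes that were all higher in cKO differ in motifs and base composition. Each runs from 250 bases before the RefSeq start to 30 bases after it. Capitals mark matches, on either strand, to 5 short motifs: 4 bound by known regulators of Ptgs2, and 1 bound by ERR receptors. They were chosen with results of these data known.
Ptgs2 (chr1:150099781-150100060, plus strand): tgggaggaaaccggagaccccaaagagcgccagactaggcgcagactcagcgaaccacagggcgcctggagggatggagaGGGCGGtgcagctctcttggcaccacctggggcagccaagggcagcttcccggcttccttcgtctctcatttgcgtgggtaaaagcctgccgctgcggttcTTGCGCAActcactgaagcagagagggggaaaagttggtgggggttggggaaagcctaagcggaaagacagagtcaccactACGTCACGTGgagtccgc
Ptges (chr2:30903268-30903547, minus strand): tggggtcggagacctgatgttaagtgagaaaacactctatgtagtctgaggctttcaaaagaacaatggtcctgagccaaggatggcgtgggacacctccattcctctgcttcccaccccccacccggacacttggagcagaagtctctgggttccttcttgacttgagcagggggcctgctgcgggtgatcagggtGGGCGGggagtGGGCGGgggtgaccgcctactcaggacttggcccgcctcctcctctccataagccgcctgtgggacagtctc
Hpgd (chr8:56294302-56294581, plus strand): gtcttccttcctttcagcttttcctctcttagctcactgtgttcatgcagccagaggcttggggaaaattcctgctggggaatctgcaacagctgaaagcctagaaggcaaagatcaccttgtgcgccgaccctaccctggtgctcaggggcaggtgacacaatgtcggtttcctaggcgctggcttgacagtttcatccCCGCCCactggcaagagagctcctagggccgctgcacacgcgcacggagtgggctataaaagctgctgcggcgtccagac
Ptgs1 (chr2:36230176-36230455, plus strand): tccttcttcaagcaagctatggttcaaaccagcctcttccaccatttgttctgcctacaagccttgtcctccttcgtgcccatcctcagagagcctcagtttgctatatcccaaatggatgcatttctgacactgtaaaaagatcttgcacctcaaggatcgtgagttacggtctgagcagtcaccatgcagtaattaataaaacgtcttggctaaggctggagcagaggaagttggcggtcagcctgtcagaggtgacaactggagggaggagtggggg

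The Ptgs2 window held 4 of the 5 motifs. An ACGTCA, part of a cAMP response element, stood at bases 13 to 18 after the RefSeq start and overlapped a CACGTG E-box at bases 17 to 22 by its last 2 bases. Whether transcription starts at the RefSeq start in these cells was not tested. A TTGCGCAA, a palindrome bound by C/EBP factors, stood at bases -69 to -62, and a GGGCGG GC box at -170 to -165. Among all 32851 windows of the same length, ACGTCA was found in 7.26%, CACGTG in 6.79%, TTGCGCAA in 0.18% and GGGCGG in 34.7%. The Ptges window had 2 GC boxes, that of Hpgd had 1, and the Ptgs1 window had none of the 5 motifs. AAGGTCA, the single site that ERR receptors bind, was in none of the 9 genes' windows and in 4.46% of all windows. G and C made up 61.4% of the Ptgs2 window, 59.6% of that of Ptges, 57.1% of that of Hpgd and 49.6% of that of Ptgs1. A match is only a run of letters, and a missing one says nothing about the factor.

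Of the 9 genes other than Ptgs2, 5 rose in cKO and 0 fell, beside 24.0% of 13132 tested genes that rose and 20.7% that fell, 44.7% in all (edgeR quasi-likelihood test, adjusted p under 0.05 over all tested genes). At an unadjusted p under 0.05 the 9 genes again gave 0 falls, and DESeq2 called 5 rises and 0 falls. The 5 were Ptgis, Ptges, Hpgd, Ptgs1 and Pla2g4a, which cover release, cyclooxygenation, 2 terminal synthases and inactivation, while neither receptor passed. Since the set was picked through this contrast, nothing is read from the count. The median log2 fold change of the 9 genes was 1.97, and that of all tested genes 0.10. The same 5 genes were higher in every cKO library than in every control library, as were 30.7% of all tested genes, with 25.4% lower in every cKO library and 56.2% apart in either direction. All 10 genes passed the filter on low counts, which Ptgs2, Hpgd, Pla2g4a, Ptger2 and Ptgds met only through their cKO counts. The calls of Hpgd and Pla2g4a are therefore only a description. Bulk libraries cannot tell fewer or more cells of a type from less or more RNA per cell.

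**Figure D1:**
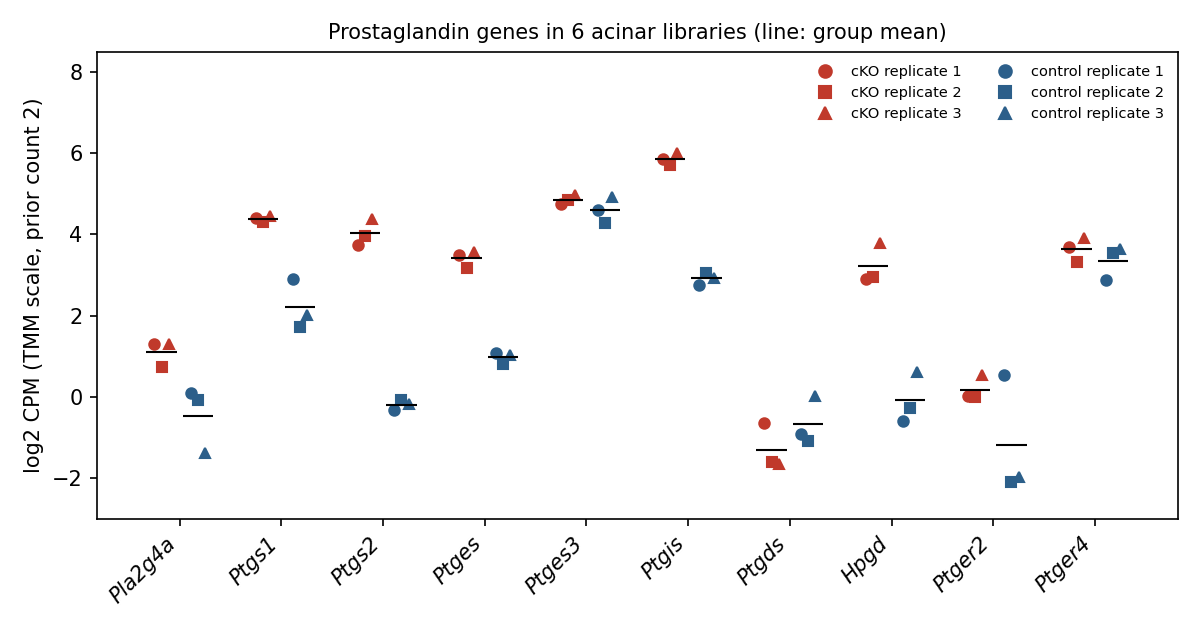
Log2 CPM (TMM scale, prior count of 2) of each gene in each library, with cKO replicates in red left of control replicates in blue and a line at each group mean. The groups are apart for Pla2g4a, Ptgs1, Ptgs2, Ptges, Ptgis and Hpgd and overlap for Ptges3, Ptgds, Ptger2 and Ptger4.

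Pla2g4a encodes the cytosolic phospholipase A2 that frees arachidonic acid. It was low in every library, with 143, 53 and 145 counts in cKO replicates 1, 2 and 3, against 6, 6 and 1 counts in control replicates 1, 2 and 3. These were 2.41, 1.60 and 2.42 CPM in cKO, against 0.798, 0.707 and 0.127 CPM in control. The groups did not overlap, and control replicate 3 was far below the other controls. Pla2g4a met the filter on low counts only through its cKO counts, so its call is only a description. The log2 fold change was 1.97 ± 0.57 (SE; adjusted p = 0.0114). It lost its call without cKO replicate 3 (1.88; adjusted p = 0.0573), and over 15 alternatives its adjusted p ran from 1.35e-13 to 0.0573.

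Ptgs1, the constitutive cyclooxygenase (chromosome 2, 36230426 to 36252272), had 21.3, 19.7 and 21.7 CPM in cKO replicates 1, 2 and 3, against 7.18, 3.06 and 3.81 CPM in control replicates 1, 2 and 3. The cKO libraries were close to each other, and control replicate 1 was the highest of the controls. Ptgs1 rose by 2.17 ± 0.26 on the log2 scale (SE; adjusted p = 1.27e-05), a 4.49-fold difference.

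Ptgs2, the inducible cyclooxygenase, was counted 795, 514 and 1247 times in cKO replicates 1, 2 and 3, against 4, 6 and 5 times in control replicates 1, 2 and 3. On the TMM scale this was 13.4, 15.5 and 20.8 CPM in cKO, against 0.532, 0.707 and 0.635 CPM in control. Every cKO library was far above every control library, and cKO replicate 3 was the highest. The log2 fold change was 4.71 ± 0.32 (SE), or 26.2-fold, and it lay between 4.52 and 4.85 when any 1 library was left out. Ptgs2 ranked 188th by fold change among the 3152 genes called higher in cKO, and 2nd among the 2567 of them with at least 1 count in every control library. A fold change of a gene with control counts of 0 depends on the prior count of the fit. Its size rests on very few control counts: the exact Poisson interval of 4 counts, at 95% and for counting error only, runs from 1.09 to 10.2.

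Set against Ptgs1 within the same library, a ratio that no scaling of libraries can change, Ptgs2 had 0.629, 0.787 and 0.959 counts per Ptgs1 count in cKO replicates 1, 2 and 3. In control replicates 1, 2 and 3 it had 0.0741, 0.231 and 0.167. The 2 cyclooxygenase genes were thus counted at similar numbers in cKO, whereas Ptgs1 had most of the cyclooxygenase counts in control. The ratios did not overlap between the groups, and the mean ratio was 5.03 times as high in cKO. As the ratio contains Ptgs2, it carries no test. Ptgs1 in turn had 0.796, 0.684 and 0.698 counts per count of the synthase gene Ptges3 in cKO replicates 1, 2 and 3, against 0.297, 0.16 and 0.126 in control replicates 1, 2 and 3, again with no overlap.

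Ptgis and Ptges had the largest fold changes of the terminal synthases. Ptgis makes prostacyclin (chromosome 2, 167191805 to 167240604) and had 58.2, 52.5 and 63.5 CPM in cKO replicates 1, 2 and 3, against 6.51, 8.13 and 7.37 CPM in control replicates 1, 2 and 3. It rose by 2.98 ± 0.18 (log2, SE; adjusted p = 1.55e-07), or 7.90-fold, with a spread within each group far smaller than the difference. The 3' end of Ptgis is covered by a transcript of the opposite strand, 1110018N20Rik, and the strand setting of the counting is not given in the sources used here, so its reads cannot be told apart from those of Ptgis.

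Ptges, the inducible microsomal prostaglandin E synthase that is often coupled to Ptgs2 (chromosome 2, 30889471 to 30929863), had 11.2, 8.90 and 11.8 CPM in cKO replicates 1, 2 and 3, against 1.86, 1.53 and 1.78 CPM in control replicates 1, 2 and 3. Values within each group were close to each other, and the groups were far apart. Ptges rose by 2.63 ± 0.27 (log2, SE; adjusted p = 3.70e-06), or 6.19-fold.

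Ptges3, the cytosolic prostaglandin E synthase that is also a co-chaperone of HSP90 (chromosome 10, 128058954 to 128077272), differed little from the bulk of genes. It had 26.7, 28.8 and 31.1 CPM in cKO replicates 1, 2 and 3, against 24.2, 19.2 and 30.2 CPM in control replicates 1, 2 and 3, and the groups overlapped. Its log2 fold change of 0.24 ± 0.18 did not pass (SE; adjusted p = 0.306; 95% interval -0.15 to 0.62). It passed only where the scale of libraries was changed, with 0.64 on library sizes outside the enzyme genes (adjusted p = 0.00850) and 3.50 on library totals (1.79e-16). The annotation holds a processed pseudogene of Ptges3, which may share its reads.

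Ptgds, the lipocalin-type prostaglandin D synthase (chromosome 2, 25466709 to 25470046), was near the floor of detection. It had 36, 9 and 17 counts in cKO replicates 1, 2 and 3, against 2, 2 and 6 in control replicates 1, 2 and 3. At 0.606, 0.271 and 0.284 CPM in cKO against 0.266, 0.236 and 0.762 CPM in control, the groups overlapped (log2 fold change -0.10 ± 0.77, SE; adjusted p = 0.930). The interval from -1.74 to 1.54 leaves a change in either direction undetectable at this depth, and the sign turned without cKO replicate 2 or 3 or control replicate 3.

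Hpgd, the dehydrogenase that starts the inactivation of prostaglandins (chromosome 8, 56294585 to 56321043), had the largest fold change of the 9 genes. It had 443, 253 and 823 counts in cKO replicates 1, 2 and 3, against 3, 5 and 10 in control replicates 1, 2 and 3. These were 7.46, 7.63 and 13.7 CPM in cKO, against 0.399, 0.589 and 1.27 CPM in control. In both groups replicate 3 was the highest, and the groups did not overlap. Hpgd met the filter on low counts only through its cKO counts, so its call is only a description. Hpgd rose by 3.67 ± 0.42 (log2, SE; adjusted p = 8.63e-06), or 12.7-fold, and was at 3.32 without cKO replicate 3 and at 4.26 without control replicate 3, the lowest and highest values with 1 library left out. There were 0.557, 0.492 and 0.660 Hpgd counts per Ptgs2 count in cKO replicates 1, 2 and 3, against 0.75, 0.833 and 2 in control replicates 1, 2 and 3. The control ratios rest on 3 to 10 Hpgd counts, and since Ptgs2 chose the set, nothing is read from them.

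The receptors Ptger2 and Ptger4 both respond to prostaglandin E2 by raising cAMP, and neither passed. Ptger4 (chromosome 15, 5206661 to 5244187) had 12.9, 9.98 and 14.9 CPM in cKO replicates 1, 2 and 3, against 7.05, 11.3 and 12.3 CPM in control replicates 1, 2 and 3. The groups overlapped, with a log2 fold change of 0.30 ± 0.23 (SE; adjusted p = 0.323; 95% interval -0.20 to 0.80). On library sizes outside the enzyme genes it was 0.70 and passed (adjusted p = 0.0256; 1.66e-15 to 0.776 over 15 alternatives). The 3' end of Ptger4 is covered by Ttc33, a protein-coding gene of the opposite strand, so some of its counts may belong to that gene. Ttc33 had 6.15, 4.86 and 6.09 CPM in cKO replicates 1, 2 and 3, against 3.59, 9.07 and 4.45 CPM in control replicates 1, 2 and 3.

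Ptger2 (chromosome 14, 44988195 to 45003820) had 58, 31 and 85 counts in cKO replicates 1, 2 and 3, against 9, 0 and 0 in control replicates 1, 2 and 3. The floor of 3 counts was at 0.353 and 0.381 CPM in control replicates 2 and 3, which had counts of 0. The exact Poisson interval of 0 counts, at 95% and for counting error only, reaches 3.69 counts. The cKO libraries had 0.977, 0.935 and 1.42 CPM and control replicate 1 had 1.20 CPM. Control replicate 1 thus stood inside the cKO range and the other two controls under it. The log2 fold change was 1.52 ± 0.93 (SE; adjusted p = 0.201), with an interval from -0.47 to 3.52. It passed without control replicate 1 (adjusted p = 0.00593), when every remaining control count is 0 and no fold change is given. An antisense gene, Gm17173, covers the 3' end of Ptger2.

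**Figure D2:**
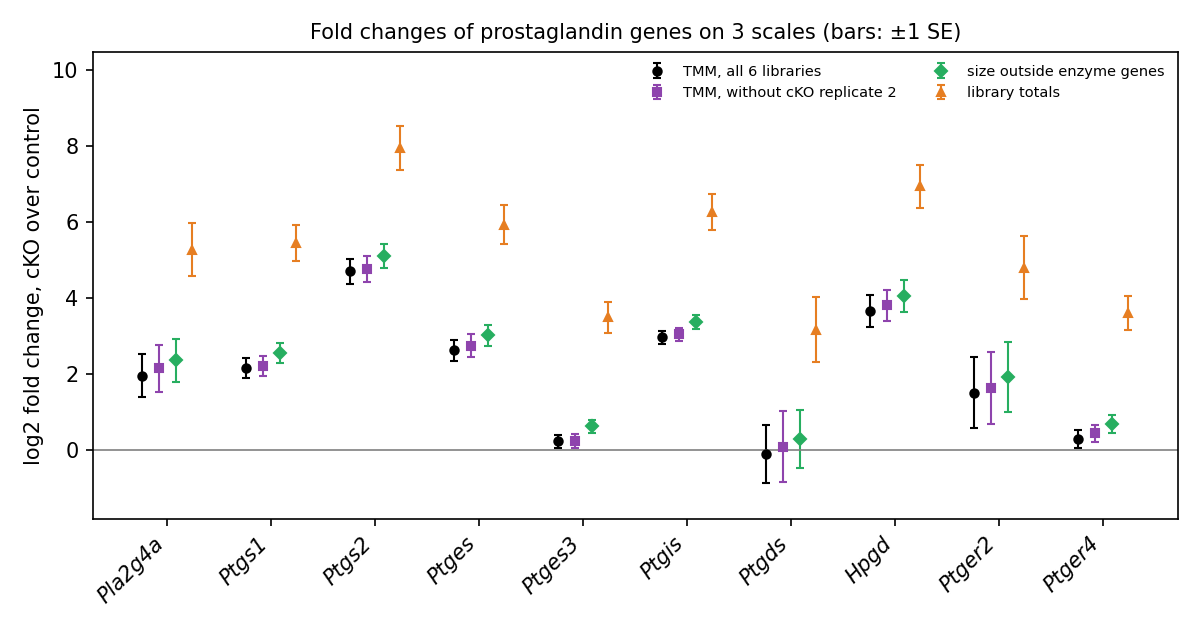
Log2 fold change of cKO over control for each gene, with bars of 1 SE, on the TMM scale with all 6 libraries, on the TMM scale without cKO replicate 2, on library sizes outside the enzyme genes and on library totals. Ptgs2 is at 4.71, 4.77, 5.11 and 7.96, and on library totals all 10 genes lie above 3.

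The scale of the libraries moved every value in the same direction. Dividing by library totals instead moved the median log2 fold change of all genes up by 3.26, and all 9 genes then passed as higher in cKO. As a share of library totals, 96.9% of all tested genes were higher in every cKO library than in every control library and 0.518% were lower in every one. On library sizes outside the enzyme genes the shift was 0.40, and 7 of the 9 genes passed. Without cKO replicate 2, the library that stood apart, 5 of the 9 genes rose and 0 fell, as with all libraries.

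A 3' tag library gives 1 tag per transcript, so tag levels of different genes can be set side by side without dividing by length. In cKO the order of mean tag level was Ptgis (58.0 CPM), Ptges3 (28.9), Ptgs1 (20.9), Ptgs2 (16.6), Ptger4 (12.6), Ptges (10.7), Hpgd (9.61), Pla2g4a (2.14), Ptger2 (1.11) and Ptgds (0.387). Each pair of neighbours from Ptgs1 down to Hpgd overlapped in range, so their order is not fixed by 3 libraries. In control, Ptges3 (24.5 CPM) was first, followed by Ptger4 (10.2), Ptgis (7.34), Ptgs1 (4.68) and Ptges (1.72). Hpgd (0.753), Ptgs2 (0.625), Pla2g4a (0.544), Ptgds (0.421) and Ptger2 (0.399) came last there and overlapped from each to the next. In control Ptgis also overlapped with Ptger4 above it and with Ptgs1 below it, so their order is not fixed either. Ptgis thus stood first in cKO and below Ptges3 in control, and Ptgs2 stood among the 5 lowest genes in control.

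The 6 genes whose profile was nearest to that of Ptgs2, by the root mean square distance of log2 CPM centred over the 6 libraries, were Col6a5 (0.422), Mmp2 (0.579), Gfpt2 (0.614), Has1 (0.625), Tnfaip6 (0.626) and Ifi205 (0.658). They were taken from 4296 named genes with a mean log2 CPM of at least 3, while Ptgs2 itself had a mean of 1.92. Col6a5 encodes a collagen VI chain, Gfpt2 an enzyme of the hexosamine pathway, Mmp2 a gelatinase of the matrix, Has1 a hyaluronan synthase and Tnfaip6 a protein that binds hyaluronan. Their log2 fold changes ran from 3.04 to 3.64. The distance mostly measures a large difference between the groups, which these genes share.

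Of 56 other listed genes, 40 were tested, 17 rose, 8 fell and 15 did not pass, with a median log2 fold change of 0.64 against 0.10 for all tested genes. Of all tested genes 24.0% rose and 20.7% fell, and the falls of this list stood near that share. Without cKO replicate 2 there were 18 rises and 8 falls. Of the 8 falls, 5 lay among phospholipases and related lipases, and the leukotriene branch had 7 rises and 0 falls. The rarer genes of that branch met the filter on low counts through their cKO counts. Rarer genes of other lists below did so too, such as Hpgds, Akr1c18, Slco2a1, Il1r1 and Areg, so counts of rises are only a description. On library totals 39 of these genes passed as higher and 0 as lower, so each fall named below is relative to the bulk of genes.

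**Figure D3:**
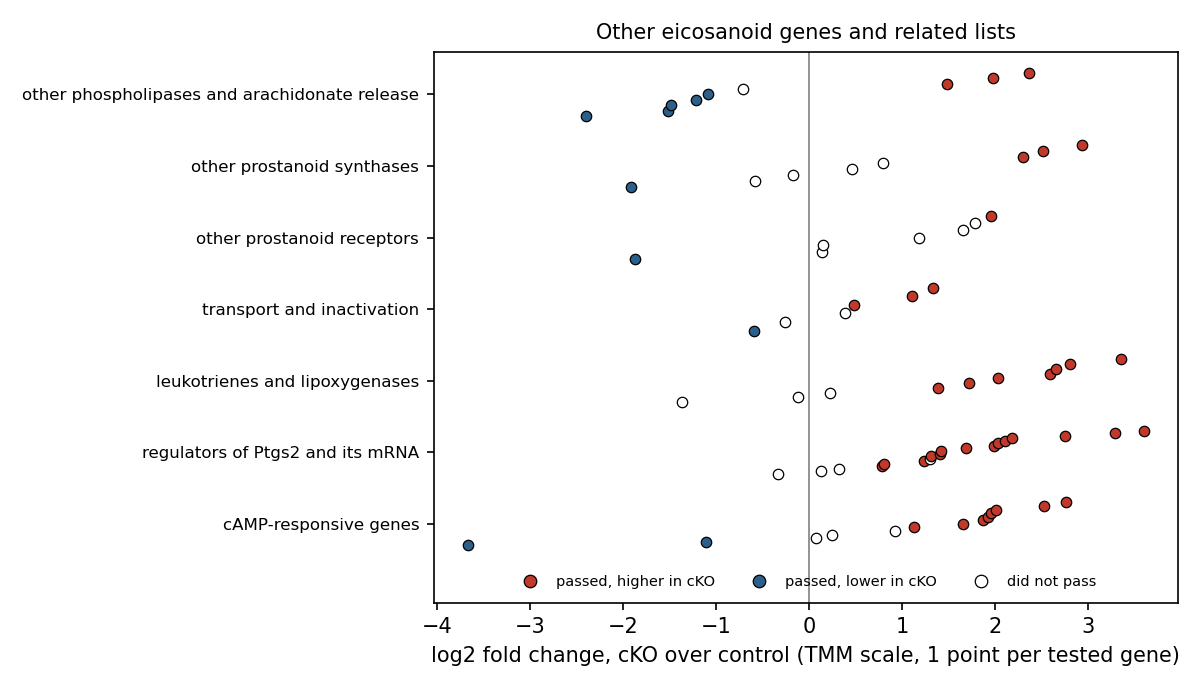
Log2 fold change of cKO over control on the TMM scale for each tested gene of 7 lists, filled red where it passed as higher, blue where it passed as lower and open where it did not pass. Leukotriene genes and regulators of Ptgs2 show filled points only to the right of 0, and phospholipases show both; on library totals none of the 40 pathway genes passed as lower.

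Among 9 tested phospholipases and related lipases, 3 rose and 5 fell, with a median of -1.08, beside 24.0% of all tested genes that rose and 20.7% that fell. Pla2g16, a phospholipase abundant in fat tissue, had 11.5 ± 0.823 CPM in cKO and 32.1 ± 1.96 CPM in control (SD, n = 3 each) and fell by 1.48 ± 0.16 (log2, SE; adjusted p = 5.45e-06). The 2 diacylglycerol lipases, which make the endocannabinoid 2-AG from which arachidonic acid can be freed, went opposite ways. Dagla fell by 2.40 ± 0.32 (adjusted p = 4.28e-05), and Daglb rose by 1.98 ± 0.29 (7.09e-05). Pla2g15, the lysosomal phospholipase, rose by 2.36 ± 0.34 (9.64e-05). Pla2g6, at 3.69 ± 0.965 CPM in cKO and 6.03 ± 2.16 CPM in control, did not pass (-0.71 ± 0.32; 0.0868), but passed without cKO replicate 2 (0.0291) or control replicate 2 (0.0243). On library totals Pla2g16 had a log2 fold change of 1.78 and Dagla of 0.83. The other calls, named after their values were seen, were the rise of Pla2g7 (1.48 ± 0.25; 0.00019), which degrades platelet-activating factor, and the falls of Pla2g12a (-1.52 ± 0.26; 0.000501), the monoacylglycerol lipase gene Mgll (-1.08 ± 0.18; 0.000215) and the fatty acid amide hydrolase gene Faah (-1.21 ± 0.40; 0.0235).

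Of 8 other prostanoid synthases, 3 rose, 1 fell and 4 did not pass (median 0.63), beside 24.0% of all tested genes that rose and 20.7% that fell. Tbxas1, the thromboxane synthase, had 6.79 to 10.1 CPM in cKO and 0.707 to 2.79 CPM in control and rose by 2.29 ± 0.37 (log2, SE; adjusted p = 0.000158). Hpgds, the haematopoietic prostaglandin D synthase, rose by 2.52 ± 0.45 (0.000349), and Akr1c18, a reductase able to make prostaglandin F2α, by 2.93 ± 0.80 (0.0077), with 0 to 0.266 CPM in control. In control replicates 1, 2 and 3, Hpgds had 9, 9 and 4 counts and Akr1c18 had 2, 0 and 2. Both met the filter on low counts only through their cKO counts, so the count of rises is only a description. Cbr1, a carbonyl reductase that converts prostaglandin E2 to F2α among many other substrates, fell by 1.91 ± 0.19 (2.37e-06), though on library totals it was 1.29 higher. Akr1b3, the most abundant gene of this list that did not pass, had 7.77 ± 0.465 CPM in cKO and 5.66 ± 0.194 CPM in control (0.46 ± 0.22; 0.110).

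Among 7 tested genes for other prostanoid receptors and a receptor partner, 1 rose and 1 fell (median 1.18). The shares over all tested genes were 24.0% rising and 20.7% falling. Ptger3, the prostaglandin E receptor that lowers cAMP, had 4.01 to 8.05 CPM in cKO and 20.8 to 22.5 CPM in control and fell by 1.87 ± 0.23 (log2, SE; adjusted p = 1.85e-05). Its raw counts, 238, 267 and 365 in cKO and 169, 191 and 164 in control, were higher in cKO, and on library totals its log2 fold change was 1.31. Ptgfrn, a membrane protein that binds the prostaglandin F receptor, rose by 1.96 ± 0.26 (2.78e-05). Ptger1 did not pass (0.14 ± 0.31; 0.747), and its sign turned without control replicate 1 (-0.08).

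Of 6 other genes of transport and inactivation, 3 rose, 1 fell and 2 did not pass (median 0.43). The shares over all tested genes were 24.0% rising and 20.7% falling. Slco2a1, the prostaglandin uptake carrier, rose by 1.33 ± 0.41 (log2, SE; adjusted p = 0.0166), Ptgr1, a prostaglandin reductase, by 1.11 ± 0.37 (0.0238) and Slco3a1, an organic anion carrier that also moves prostaglandins, by 0.48 ± 0.18 (0.0353). Zadh2, another prostaglandin reductase, fell by 0.59 ± 0.22 (0.0428). Each of these 4 calls was lost under some of the alternatives that left out 1 library: cKO replicate 1 or 3 for all 4 genes, any control library for Ptgr1, control replicate 1 or 3 for Slco3a1, and cKO replicate 2 or control replicate 2 or 3 for Zadh2. Zadh2 also lost its call with no filter (0.0852). It was at -0.20 on library sizes outside the enzyme genes (0.496) and at 2.68 on library totals. Ptgr2 did not pass (-0.26 ± 0.27; 0.458).

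The leukotriene branch uses the same fatty acid through lipoxygenases. Of its 16 listed genes 10 were tested, of which 7 rose, 0 fell and 3 did not pass (median 1.87). Over all tested genes, 24.0% rose and 20.7% fell. The rarer genes met the filter on low counts through their cKO counts, so the count of rises is only a description. Control replicates 1, 2 and 3 had 1, 9 and 6 counts of Alox5 and 4, 4 and 2 of Alox15. At an unadjusted p under 0.05 there was 1 fall, that of the glutathione transferase gene Mgst3 (-1.37 ± 0.56; adjusted p = 0.0615), and DESeq2 gave 6 rises and 1 fall. Alox5ap, the activating protein of 5-lipoxygenase, had 21.7 to 49.6 CPM in cKO and 4.57 to 8.36 CPM in control and rose by 2.59 ± 0.33 (log2, SE; adjusted p = 7.77e-05). Alox5 itself rose by 2.65 ± 0.53 (0.000830), Alox15 by 2.80 ± 0.54 (0.000700) and the leukotriene C4 synthase Ltc4s by 1.72 ± 0.27 (0.000104). Lta4h, the hydrolase for leukotriene B4, did not pass (0.22 ± 0.21; 0.408).

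Among 18 genes listed as regulators of Ptgs2 transcription or of its mRNA, 14 rose and 0 fell (median 1.41). There were 0 falls also at an unadjusted p under 0.05 and in DESeq2. The list does not separate genes by the direction of their effect on Ptgs2, so the count gives no direction. It includes Tnfaip6, which is also among the profiles nearest to Ptgs2. Of all tested genes 24.0% rose and 20.7% fell. The interleukin gene Il6 had 18.0 to 29.0 CPM in cKO and 2.26 to 4.06 CPM in control and rose by 2.75 ± 0.27 (log2, SE; adjusted p = 2.19e-06). Il1r1, the receptor for interleukin 1, which induces Ptgs2, rose by 3.29 ± 0.38 (8.66e-06), and Tnfaip6, itself induced by the same cytokines, by 3.59 ± 0.34 (6.75e-06). Celf2, an RNA-binding protein that binds the Ptgs2 message, rose by 1.42 ± 0.15 (4.66e-06). Creb1, a factor for cAMP response elements, did not pass (0.32 ± 0.17; 0.135).

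Of 13 tested genes known to respond to cAMP, the second messenger of Ptger2 and Ptger4, 8 rose and 2 fell (median 1.65), beside 24.0% of all tested genes that rose and 20.7% that fell. Dusp1, a phosphatase of MAP kinases, had 273 ± 41.9 CPM in cKO and 68.0 ± 8.01 CPM in control (SD, n = 3 each) and rose by 2.01 ± 0.18 (log2, SE; adjusted p = 1.29e-06). The nuclear receptor genes Nr4a3 (2.53 ± 0.23; 1.37e-06) and Nr4a1 (1.96 ± 0.19; 2.08e-06) and the phosphodiesterase gene Pde4b (1.87 ± 0.18; 1.57e-06) also rose. Sik1 did not pass (0.93 ± 0.38; 0.0594), and passed without cKO replicate 2 (0.0113), without control replicate 2 (0.014), with no filter (0.0289) and on both other library scales (0.0103 and 4.98e-16). The 2 falls, named after their values were seen, were those of the phosphodiesterase gene Pde3b (-1.11 ± 0.22; 0.000935) and of Ppargc1a (-3.67 ± 0.90; 0.00427), a coactivator of nuclear receptors that include the ERR family. Ppargc1a was low in every library, with 0, 9 and 11 counts in cKO replicates 1, 2 and 3, against 7, 26 and 12 in control replicates 1, 2 and 3. As a share of library totals its groups overlapped. Most genes of this list answer to other signals as well as cAMP.

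Markers of other cell types differed between the groups in the same libraries. Beside the counts in this and the next paragraph, 24.0% of all tested genes rose and 20.7% fell. Fibroblast and stellate markers rose in 11 of 12 genes, with a summed level of 3600 to 5140 CPM in cKO and 731 to 826 CPM in control, led by Col1a2. Macrophage and monocyte markers rose in 12 of 12, at 524 to 1050 CPM in cKO and 135 to 176 CPM in control, led by C1qb. Mesothelial markers rose in 6 of 7 tested genes, at 121 to 152 CPM in cKO and 27.5 to 30.7 CPM in control, led by Lrrn4.

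Among 6 tested mast cell markers 3 rose (Hdc, Tpsb2 and Cma1) and 1 fell, and Fcer1a was at 0 in all controls. Their sum was 38.2 to 42.5 CPM in cKO and 13.2 to 17.6 CPM in control. Most of it was Hdc, with a mean of 31.6 CPM in cKO and 7.52 CPM in control. Kit fell by 3.18 ± 0.52 (log2, SE, adjusted p = 0.000176), and Cpa3 did not pass (-0.16, adjusted p = 0.772). Of 6 platelet markers 2 were tested and 1 rose, at 28.0 to 62.4 CPM in cKO and 6.72 to 10.1 CPM in control. Most of this sum was Pf4, with a mean of 43.4 CPM in cKO and 7.16 CPM in control. Gp6 was at 0 in all 6 libraries, and Ppbp and Gp9 were at 0 in control. Endothelial markers had 2 rises and 3 falls of 10 (31.5 to 45.3 CPM in cKO and 58.6 to 64.1 CPM in control, led by Plvap), and duct markers had 3 rises and 4 falls of 7 (78.3 to 93.8 CPM in cKO and 168 to 207 CPM in control, led by Sox9). Of 7 islet markers 0 rose and 1 fell, with overlapping sums of 409 to 843 CPM in cKO and 589 to 948 CPM in control, led by Ins2. All 11 acinar markers fell, and their sum, led by Ctrb1, was 12400, 76300 and 20200 CPM in cKO replicates 1, 2 and 3, against 501000 to 589000 CPM in control. On library totals Plvap (2.33) and Sox9 (1.39) were higher in cKO, and Ctrb1 did not pass (-0.74; adjusted p = 0.115).

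The ratio of Ptgs2 to the sums of these markers within each library is given as a description: since Ptgs2 was chosen for its large difference, a higher ratio in cKO was fixed by that choice wherever the markers differed by less. There were 2.61 to 4.38 Ptgs2 counts per 1000 fibroblast and stellate marker counts in cKO, against 0.677 to 0.968 in control. Per 1000 macrophage and monocyte marker counts there were 12.8 to 29.6 in cKO and 3.02 to 4.78 in control, and per 1000 mesothelial marker counts 99.2 to 136 in cKO and 19.3 to 25.0 in control. The ratio to each of the 9 lists was higher in every cKO library than in every control library. The mean ratio was 4.68 times as high in cKO for fibroblast and stellate markers, the smallest of the 9 differences. The part of these cells in the differences of the 10 genes was not tested.

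**Figure D4:**
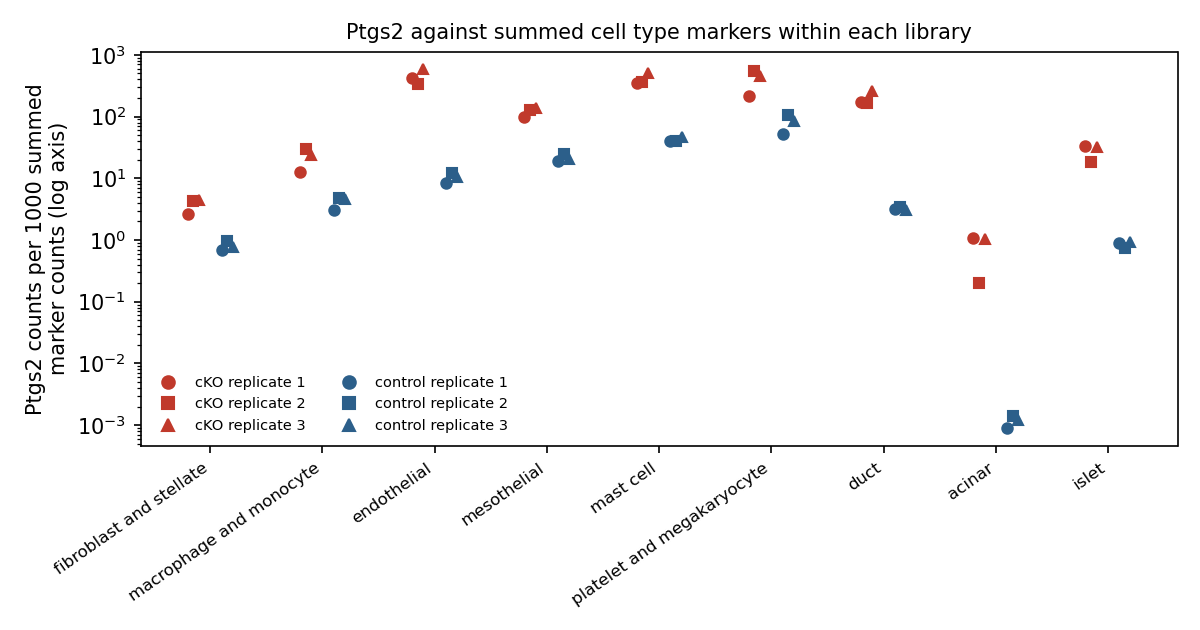
Ptgs2 counts per 1000 summed counts of each of 9 marker lists within each library, on a log axis, with cKO in red left of control in blue. All cKO points lie above all control points for each list.

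Within the cKO group, the genes differed in their level in cKO replicate 2, the library with the most enzyme counts, relative to the mean of the other two. The macrophage and monocyte marker sum of cKO replicate 2 was 0.549 times the mean of cKO replicates 1 and 3, that of fibroblast and stellate markers 0.729 times and that of acinar markers 4.68 times. Ptges3 stood at 0.997 times, Ptgs1 at 0.917, Ptgs2 at 0.907 and Ptgis at 0.862. Ptger2 (0.781), Ptges (0.771), Hpgd (0.72), Ptger4 (0.719), Pla2g4a (0.662) and Ptgds (0.61) were further below that mean. For Ptgs2, Ptges3 and Hpgd, cKO replicate 2 was above cKO replicate 1 and below cKO replicate 3. Among the leukotriene, thromboxane and prostaglandin D genes of the wider pathway, Hpgds stood at 0.472 times, Alox5ap at 0.511, Ltc4s at 0.585, Alox5 at 0.635 and Tbxas1 at 0.729. These ratios come from 1 library against 2 and have no replicate check. Of the other tested leukotriene genes, Alox15, Cysltr1 and Ggt5 were also lowest in cKO replicate 2 among the cKO libraries. Lta4h was highest there, with 9.33, 10.3 and 9.19 CPM in cKO replicates 1, 2 and 3. Ltb4r1 (1.57, 2.32 and 2.95 CPM), Alox12 and Mgst3 lay between the other cKO libraries there.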

How the data were processed

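Per the labels' protocols, 500 ng of RNA per sample went into Lexogen QuantSeq libraries, in which 1 tag per transcript is read at its 3' end. For each library the authors deposited a table of raw, unnormalized counts by gene symbol. The submitters' processing notes name Bowtie2, edgeR, mm10 and GRCm38 without versions or roles. The sources used here give no counter, annotation or strand setting. Molecular identifiers are not mentioned, so PCR copies count and intervals and floors (3 counts) cover counting error only.

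The 23282 rows were fitted together with edgeR 4.0.16 in R 4.3.3 (filterByExpr, minimum count 10, minimum total 15; TMM factors, glmQLFit with robust estimation, glmQLFTest). Benjamini-Hochberg adjustment ran over the 13132 genes tested, and an adjusted p under 0.05 passed. The SE is the fold change divided by the square root of F. CPM use the TMM-scaled library size, and log2 CPM a prior count of 2. DESeq2 1.42.0, other scales, filters, a replicate block and leaving out each library were alternatives. The fit was tested on simulated data.

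The genes and lists were chosen with earlier results of these data known. Named list genes are, per list, up to 4 with the smallest p among those that passed and the most abundant that did not, the 6 profiles nearest to Ptgs2, and the most abundant of each marker list (fibroblast and stellate, macrophage and monocyte, endothelial, mesothelial, mast cell, platelet, duct, acinar, islet). Positions are from GENCODE M21 (GRCm38) and promoters from RefSeq (GRCm38.p6). Replicates of a group differed beyond sampling noise in every pair (chi-square per degree of freedom 14.6 to 370).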

Additional observations from a re-analysis of the deposited data

How the results depend on the processing

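Of 133 values of single genes under 15 alternatives, 121 kept their direction and their side of the threshold. The scale mattered most. On library totals Ptgs2 was at 7.96, 9 of the 9 other genes were higher, and the wider pathway had 39 rises and 0 falls; on library sizes outside the enzyme genes Ptgs2 was at 5.11. Both follow from the scale itself, which moved the median of all genes by 3.26 and 0.40. Leaving out 1 library gave 4.52 to 4.85 for Ptgs2, 4 to 6 rises and 0 falls among the 9 genes, and 12 to 18 rises and 6 to 8 falls in the wider pathway. Ptgds, which never stood clear of 0 on the TMM scale, changed sign on library totals (3.18), on sizes outside the enzyme genes (0.30), without cKO replicate 2 (0.10) or 3 (0.09) and without control replicate 3 (0.64), with values from -0.58 to 0.64 when any 1 library was left out. The cause was not tested. Deviations of cKO and control libraries with the same replicate number were nearly uncorrelated (0.02, -0.02 and -0.01). With 3 libraries per group this cannot show whether the libraries were prepared in pairs. Adding the replicate numbers to the fit as a replicate block gave the 9 genes 5 rises and 0 falls. Ptgs2 kept its direction, and the wider pathway gave 16 rises and 7 falls. Slco3a1 (adjusted p = 0.0562) and Zadh2 (0.0784) lost their calls under the block. RLE factors, TMMwsp, DESeq2, both other filters and no robust estimation left 5 rises and 0 falls among the 9 genes, although Ptgds and Ptger2 are not tested at a minimum count of 50. Over all tested genes there were 3152 rises and 2716 falls, against 12654 and 53 on library totals and 4802 and 1688 on sizes outside the enzyme genes. Depth limits Ptgds, Ptger2, Pla2g4a and Ptgs2 itself, which had at most 9 counts in any control library, and Hpgd, which had 3 to 10.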
